A study of Mus musculus with 6 samples.

Results

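Long noncoding RNA (lncRNA) genes carried 3798 of the 123182 Smad binding peaks found in molar tooth germ and limb of E13.5 mouse embryos. A peak was counted here when its summit lay within 1 kb of the start or end of a RefSeq lncRNA gene and over 1 kb from the start and end of every protein-coding gene. These peaks numbered 1030 of 35476 in the molar pSmad1/5 list, 904 of 34561 in the molar Smad4 list, 808 of 23389 in the limb pSmad1/5 list and 1056 of 29756 in the limb Smad4 list.

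The lists come from chromatin immunoprecipitation and sequencing (ChIP-seq), which recovers the DNA that a protein is bound to. All tissue came from wild-type CD1 embryos, and it was fixed in 1% formaldehyde for 15 min. The 4 groups were molar pSmad1/5, molar Smad4, limb pSmad1/5 and limb Smad4, with 1 library each, and differences among them could not be checked against replicates. The series also holds 1 input library per tissue, not analysed here. The labels name whole tissue with no sorting of cells and do not say how many embryos were pooled, so a site bound in fewer cells and a site bound more weakly cannot be told apart. The intervals below are exact (Clopper-Pearson) 95% binomial intervals and cover counting error over peaks only. Read depth is unknown, because the lists hold no read counts. Each peak has the authors' own enrichment score, and the lowest score listed on a chromosome lay just above 3 on the autosomes of both limb lists. It lay just above 2 on chromosomes 1, 3, 6, 12, 13, 14 and 16 of the molar pSmad1/5 list and just above 4 on chromosomes 2, 5, 8, 9, 11 and 19 of the molar Smad4 list, so molar counts on these chromosomes are not on the limb scale. Values limited to the autosomes with a floor of 3 in all lists (4, 7, 10, 15, 17 and 18) are given where this matters.

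Bone morphogenetic proteins (BMPs) signal through receptors that phosphorylate Smad1 and Smad5, and the phosphorylated proteins enter the nucleus with Smad4, the partner they share with the TGF-beta branch, and bind DNA at short GTCT elements and at GC-rich elements. LncRNA genes are transcribed and often spliced but encode no known protein. Some act on neighbouring genes or on chromatin, some are hosts of microRNAs or small nucleolar RNAs, and for most mouse lncRNA genes no role is established.

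The sequences that carry the account below are promoters and peaks at lncRNA starts, taken from RefSeq (GRCm38.p6, which shares the mm10 coordinates of the primary chromosomes). Capitals mark 3 motifs, on either strand: GGCGCC (its own reverse complement), GGAGCC (or GGCTCC) and GTCT (or AGAC). The first set holds the 3 lncRNA promoters, from 250 bases before the annotated start to 50 after it, that contained summits of 3 lists. They lie at chr2:164168365-164168664 (plus strand), chr5:77433468-77433767 (plus strand) and chr6:134248761-134249060 (minus strand), in the order printed.
LOC115486434 promoter: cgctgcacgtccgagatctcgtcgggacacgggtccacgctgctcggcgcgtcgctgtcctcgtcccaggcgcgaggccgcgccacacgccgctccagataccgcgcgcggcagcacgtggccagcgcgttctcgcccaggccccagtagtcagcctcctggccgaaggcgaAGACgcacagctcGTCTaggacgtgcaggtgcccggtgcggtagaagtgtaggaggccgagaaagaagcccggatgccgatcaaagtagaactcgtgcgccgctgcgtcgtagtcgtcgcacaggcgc
Gm34728 promoter: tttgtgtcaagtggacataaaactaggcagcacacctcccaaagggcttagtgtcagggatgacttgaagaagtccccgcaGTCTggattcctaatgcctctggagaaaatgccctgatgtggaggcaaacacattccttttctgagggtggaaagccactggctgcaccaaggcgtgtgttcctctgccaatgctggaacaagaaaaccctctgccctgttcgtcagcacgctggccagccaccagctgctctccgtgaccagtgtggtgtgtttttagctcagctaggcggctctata
Gm17089 promoter: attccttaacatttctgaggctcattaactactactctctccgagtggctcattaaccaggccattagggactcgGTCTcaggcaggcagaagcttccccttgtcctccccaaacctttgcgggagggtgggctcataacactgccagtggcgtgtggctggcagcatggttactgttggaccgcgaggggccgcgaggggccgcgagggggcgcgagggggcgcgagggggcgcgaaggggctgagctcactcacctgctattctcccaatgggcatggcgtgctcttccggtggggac
The second set holds whole peaks at the starts of lncRNA genes discussed below: a limb pSmad1/5 peak at Gm41856 (chr19:45545142-45545219, minus strand) that overlapped a limb Smad4 peak around the same GGCGCC, a limb pSmad1/5 peak at Gm40371 (chr6:47651268-47651346, minus strand) under the highest-scoring limb Smad4 peak of the set, a molar pSmad1/5 peak at Snhg8 (chr3:123508358-123508434, minus strand) and a molar Smad4 peak at Chaserr (chr7:73558504-73558553, minus strand).
Gm41856 limb pSmad1/5 peak: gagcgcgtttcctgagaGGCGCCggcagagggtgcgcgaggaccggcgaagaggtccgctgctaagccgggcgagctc
Gm40371 limb pSmad1/5 peak: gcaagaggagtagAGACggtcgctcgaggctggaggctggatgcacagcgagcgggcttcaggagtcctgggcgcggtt
Snhg8 molar pSmad1/5 peak: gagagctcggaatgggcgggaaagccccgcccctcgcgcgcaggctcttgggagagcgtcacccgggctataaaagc
Chaserr molar Smad4 peak: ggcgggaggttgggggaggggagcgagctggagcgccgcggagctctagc
The GC content of the 3 promoters was 68.7%, 53.0% and 62.0% in the order printed, against a median of 52.7% for all RefSeq promoters. GGCGCC stood in the Gm41856 peak alone of the 7 stretches. GTCT or AGAC stood in each of the 3 promoters and in the Gm40371 peak, and the Snhg8 and Chaserr peaks held none of the 3 motifs.

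Peaks were denser at lncRNA gene ends than over the chromosomes as a whole in each of the 4 lists, by 1.59 to 2.15 times, and less dense there than at protein-coding gene ends. The qualifying windows covered 44.9 Mb, or 1.65% of the annotated span of the chromosomes. Molar pSmad1/5 had 22.9 peaks per Mb in these windows against 13.0 over its whole list, a ratio of 1.76 (95% interval 1.66 to 1.87). Molar Smad4 had 20.1 against 12.7, a ratio of 1.59 (1.49 to 1.69). Limb pSmad1/5 had 17.998 against 8.59, a ratio of 2.09 (1.95 to 2.24), and limb Smad4 had 23.5 against 10.9, a ratio of 2.15 (2.03 to 2.28). Over all chromosomes the intervals of the molar lists did not overlap those of the limb lists, but this depended on the chromosomes and genes counted. On the autosomes where all 4 lists had equal score floors the ratio was 1.78 (1.53 to 2.05) in molar pSmad1/5, which overlapped the 2.12 (1.87 to 2.40) of limb pSmad1/5 and the 2.05 (1.83 to 2.28) of limb Smad4, and it was 1.48 (1.33 to 1.65) in molar Smad4. With intergenic lncRNA genes only, molar Smad4 had a ratio of 1.51 (1.37 to 1.65), above the 1.41 (1.27 to 1.56) of limb Smad4, with intervals that overlapped. At protein-coding gene ends the ratio was 4.94 in molar pSmad1/5, 5.09 in limb pSmad1/5 and 6.18 in limb Smad4, but 1.66 in molar Smad4. Molar Smad4 was thus the list in which lncRNA ends and protein-coding ends had ratios with overlapping intervals (1.49 to 1.69 and 1.58 to 1.74).

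**Figure D1:**
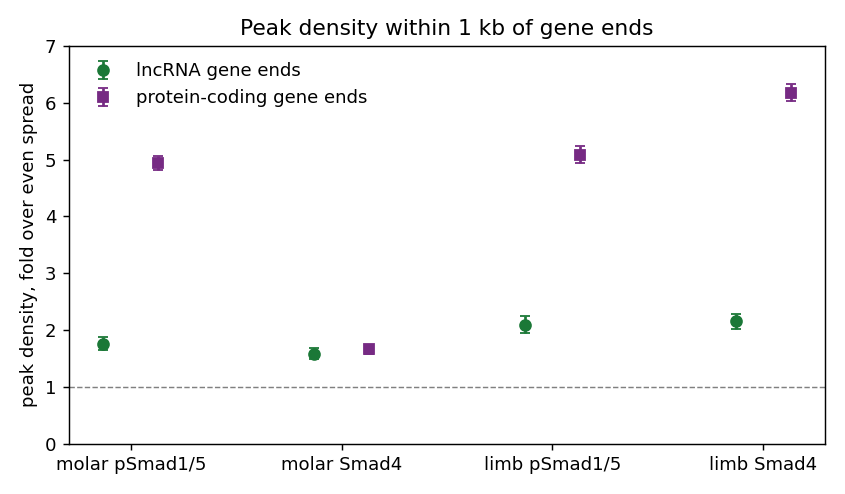
Peak density within 1 kb of gene ends in each list, as the ratio to an even spread over the chromosomes, for lncRNA gene ends (green circles) and protein-coding gene ends (purple squares). Bars are exact 95% intervals over peaks. LncRNA ends lay between 1.59 and 2.15 in the 4 lists, and protein-coding ends lay above 4.9 in all but molar Smad4.

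On each of the 19 autosomes the ratio at lncRNA ends was above 1 in all 4 lists. It ran over autosomes from 1.05 to 2.27 in molar pSmad1/5, from 1.23 to 2.65 in molar Smad4, from 1.44 to 2.53 in limb pSmad1/5 and from 1.18 to 3.37 in limb Smad4, on 11 to 126 peaks a chromosome. Beyond 1 kb the ratio was lower than within it in each list. For limb Smad4 it was 2.43 within 250 bp of a lncRNA end, 1.65 at 1 to 2 kb and 1.23 at 20 to 50 kb, and for molar pSmad1/5 it was 1.997, 1.43 and 1.16 at the same distances. Within 1 kb the ratio was not highest nearest the gene in the other 2 lists. Molar Smad4 had 1.52 within 250 bp and 1.62 at 500 bp to 1 kb, and limb pSmad1/5 had 1.999 within 250 bp, 2.02 at 250 to 500 bp and 2.18 at 500 bp to 1 kb. Just inside the limit, at 900 to 1000 bp, there were 77, 95, 67 and 95 peaks in the order molar pSmad1/5, molar Smad4, limb pSmad1/5 and limb Smad4, and just outside, at 1000 to 1100 bp, 78, 67, 57 and 102. A further 535, 110, 337 and 536 peaks lay within 1 kb of a lncRNA end but also of a protein-coding end and were left out.

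The scores of these peaks were close to those of the other peaks. The median was 3.10 against 2.99 for the other peaks in molar pSmad1/5, 3.43 against 3.38 in molar Smad4, 3.49 against 3.44 in limb pSmad1/5 and 3.56 against 3.53 in limb Smad4. At protein-coding ends the medians were 3.25, 3.48, 3.64 and 3.76 in the same order. A share of 42.9% of the molar pSmad1/5 peaks at lncRNA ends lay inside a protein-coding gene (39.9 to 46.0%), 31.7% of molar Smad4 peaks (28.7 to 34.9%), 44.3% of limb pSmad1/5 peaks (40.8 to 47.8%) and 48.7% of limb Smad4 peaks (45.6 to 51.7%). In each list this was below the share among peaks away from all of these gene ends, which was 52.1%, 50.1%, 60.2% and 62.8%.

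Peaks were denser at the starts of lncRNA genes than at the opposite ends in 3 lists, while in molar Smad4 the interval of the ratio includes 1. Strand was known for 9522 of the 12714 lncRNA genes with a qualifying end. Molar pSmad1/5 had 31.6 peaks per Mb at starts and 17.97 at the opposite ends, a ratio of 1.76 (1.53 to 2.03). Molar Smad4 had 21.5 at starts and 19.2 at ends, a ratio of 1.12 (0.961 to 1.30). Limb pSmad1/5 had 23.8 and 14.1, a ratio of 1.69 (1.44 to 1.99), and limb Smad4 had 32.5 and 16.6, a ratio of 1.95 (1.69 to 2.26). On the autosomes with equal score floors the same ratios were 2.42, 1.08, 1.75 and 1.68, so the ratio of molar Smad4 was again the lowest, with an interval of 0.827 to 1.41 that overlaps those of both limb lists.

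The profile along the gene was steepest in limb Smad4. In the 250 bp before the start its density was 4.46 times the list average, and in the 250 bp after it 4.30 times. Limb pSmad1/5 reached 3.54 and 3.33 times at these positions, molar pSmad1/5 2.85 and 3.35 times, and molar Smad4 2.24 and 1.49 times. At the opposite ends the picture differed. In the 250 bp after the gene end the density was 1.15 times the list average in molar pSmad1/5, 0.971 in molar Smad4, 0.973 in limb pSmad1/5 and 1.05 in limb Smad4, on 19 to 34 peaks.

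**Figure D2:**
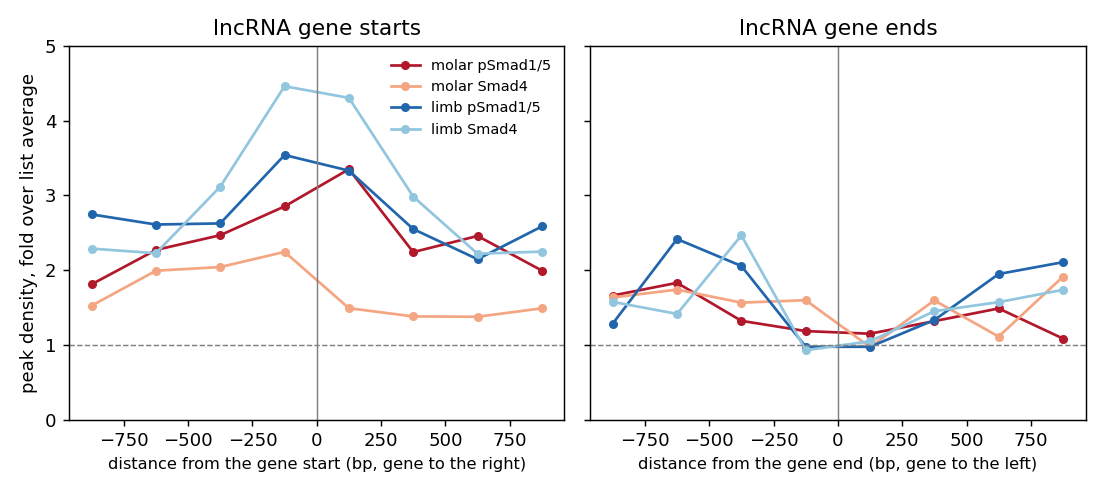
Peak density in steps of 250 bp along lncRNA genes of known strand, as the ratio to the average of each list, around gene starts (left) and the opposite ends (right). Negative distances lie before the start or before the end in the direction of transcription, and the dashed line marks the list average. Limb Smad4 rises to 4.46 at the start and molar Smad4 to 2.24, while at the gene end itself the limb lists lie near 1.

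Promoters of lncRNA genes with a peak summit were richer in G and C than other lncRNA promoters in 3 lists, and less so in molar Smad4. Of 8900 RefSeq lncRNA promoters whose start lay over 1 kb from protein-coding gene ends, 102 held a molar pSmad1/5 summit, 69 a molar Smad4 summit, 79 a limb pSmad1/5 summit and 126 a limb Smad4 summit. These promoters belonged to 96, 65, 75 and 121 genes in that order, and the 8900 belonged to 8075 genes. Promoters of the same gene were counted separately. The median GC content of the promoters was 59.8%, 50.7%, 57.0% and 59.0% in the order of the lists, against 47.7% for all 8900. Among the 222 promoters with at least 65% GC, a molar pSmad1/5 summit was present in 12.2% (8.17 to 17.2%), a molar Smad4 summit in 0.901% (0.109 to 3.22%), a limb pSmad1/5 summit in 7.21% (4.18 to 11.4%) and a limb Smad4 summit in 15.8% (11.2 to 21.2%). Among the 1198 promoters under 40% GC, limb Smad4 had a summit in 1 and the other lists in 0, which allows a share of up to 0.250% in each of those lists (3 counts of the total). The score floor bears on this contrast. Over promoters of 55% GC or more, a summit was present in 5.24% for molar pSmad1/5 and 1.35% for molar Smad4 (0.801 to 2.12%), and on the autosomes with equal floors in 2.86% (1.49 to 4.95%) and 1.43% (0.527 to 3.09%), whose intervals overlap. Limb pSmad1/5 and limb Smad4 had 3.58% and 5.49% on those autosomes.

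**Figure D3:**
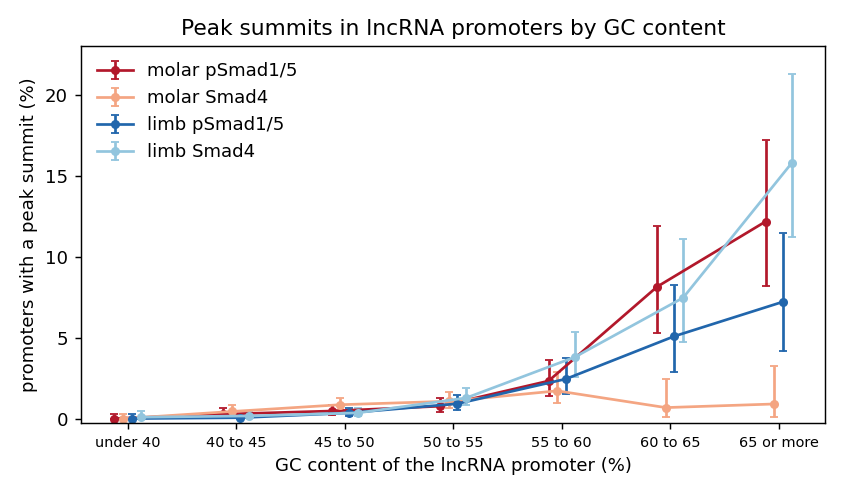
Share of lncRNA promoters with a peak summit (vertical axis, percent) by the GC content of the promoter (horizontal axis, percent), for 8900 promoters over 1 kb from protein-coding gene ends. Bars are exact 95% intervals over promoters. The share climbs with GC content to 12.2% in molar pSmad1/5, 7.21% in limb pSmad1/5 and 15.8% in limb Smad4, and stays under 2% in molar Smad4.

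The GC-rich motif GGCGCC followed the same order. It occurred in 16.7% of promoters with a molar pSmad1/5 summit (10.02 to 25.3%), 2.90% of those with a molar Smad4 summit (0.353 to 10.1%), 16.5% of those with a limb pSmad1/5 summit (9.06 to 26.5%) and 18.3% of those with a limb Smad4 summit (11.9 to 26.1%). All 8900 lncRNA promoters held it in 3.42% and all 32851 promoters of the table in 11.9%. Within promoters of 55% GC or more the shares were 24.3% (14.8 to 36.0%), 11.1% (1.38 to 34.7%), 25.5% (14.3 to 39.6%) and 26.1% (17.3 to 36.6%) in the same order, against 13.7% for all such lncRNA promoters. The intervals of the lists other than molar Smad4 lay above that value, those of molar pSmad1/5 and limb pSmad1/5 only just. Some promoters of the same gene overlap and hold the same summit and motif, as at Gm33250, and each was counted. These intervals are therefore too narrow, and neither the molar nor the limb pSmad1/5 share is clearly above 13.7%. Among the promoters of 55% GC or more, GC content still differed between those with a summit and all of them. Those of 65% GC or more were 27 of 70, 2 of 18, 16 of 51 and 35 of 88 in list order. Of all such lncRNA promoters they were 222 of 1335. GGCGCC is made of G and C only, and its share at equal GC content was not tested. GGAGCC occurred in 41.2%, 15.9%, 36.7% and 36.5%, against 21.0% of the 8900 and 30.8% of all promoters.

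The short element GTCT, whose reverse complement AGAC also lies inside CAGACA, was common in lncRNA promoters with and without a summit. It occurred in 91.2% of promoters with a molar pSmad1/5 summit, 94.2% with a molar Smad4 summit, 92.4% with a limb pSmad1/5 summit and 82.5% with a limb Smad4 summit (74.8 to 88.7%), against 91.0% of the 8900 and 88.0% of all promoters. CAGACA occurred in 30.4%, 30.4%, 35.4% and 25.4%, against 26.3% and 21.0%. The palindrome GTCTAGAC, which holds GTCT on both strands, occurred in 0 of the 102, 69, 79 and 126 promoters with a summit, which allows shares of up to 2.94%, 4.35%, 3.797% and 2.38% in that order, and in 0.202% of the 8900 and 0.213% of all promoters.

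Counted by gene, 2917 of 12714 lncRNA genes (22.9%) had a peak in at least 1 list. A molar pSmad1/5 peak was present at 950 (7.47%, 7.02 to 7.94%), a molar Smad4 peak at 873 (6.87%, 6.43 to 7.32%), a limb pSmad1/5 peak at 764 (6.01%, 5.60 to 6.44%) and a limb Smad4 peak at 935 (7.35%, 6.91 to 7.82%). Of protein-coding genes, 20.7%, 7.76%, 15.5% and 21.8% had a peak within 1 kb of an end in the same order. LncRNA genes that overlapped a protein-coding gene had a limb Smad4 peak in 10.4% and a molar Smad4 peak in 7.22%. Those over 50 kb from protein-coding genes had a limb Smad4 peak in 4.22% (3.55 to 4.97%) and a molar Smad4 peak in 6.93% (6.08 to 7.86%). For pSmad1/5 the overlapping genes had a peak in 9.43% in molar and 7.77% in limb, and the remote genes in 5.51% and 3.97%. Of the 217 lncRNA genes named for a gene on the opposite strand, 9.22% had a molar pSmad1/5 peak and 5.07% a molar Smad4 peak. In limb, 5.99% had a pSmad1/5 peak and 12.9% (8.75 to 18.1%) a Smad4 peak. The last lies above the 7.35% of all lncRNA genes, but this was not particular to these genes. The 161 lncRNA genes with other names, host genes left out, had a limb Smad4 peak in 13.7% and a limb pSmad1/5 peak in 12.4%. Their intervals started at 8.77% and 7.76%, above the 7.35% and 6.01% of all lncRNA genes. Their molar intervals included the values of all lncRNA genes. The 10.4% of genes overlapping a protein-coding gene also lies within 8.75 to 18.1%.

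Most of these genes belonged to 1 list, with 2384 in 1 list, 464 in 2, 66 in 3 and 3 in all 4. Of protein-coding genes, 6159 were in 1 list, 2825 in 2, 774 in 3 and 65 in all 4. The limb pSmad1/5 and limb Smad4 lists shared 178 lncRNA genes, which is 23.3% of the limb pSmad1/5 genes and 19.04% of the limb Smad4 genes, against 42.7% and 30.3% for protein-coding genes. Of all lncRNA genes, 7.47% were in the molar pSmad1/5 list, 6.87% in the molar Smad4 list, 6.01% in the limb pSmad1/5 list and 7.35% in the limb Smad4 list, so the genes of each limb list were in the other limb list more often than all lncRNA genes were. Molar pSmad1/5 and molar Smad4 shared 83, or 8.74% and 9.51%, against 11.2% and 29.96% for protein-coding genes. Both lncRNA shares lay close to the 6.87% and 7.47% of all lncRNA genes that were in the other list. Molar pSmad1/5 shared 103 genes with limb pSmad1/5 (10.8% and 13.48%, for protein-coding genes 24.3% and 32.7%) and 161 with limb Smad4 (16.9% and 17.2%, for protein-coding genes 36.6% and 34.9%). Molar Smad4 shared 70 genes with limb pSmad1/5 (8.02% and 9.16%, for protein-coding genes 19.7% and 9.87%) and 85 with limb Smad4 (9.74% and 9.09%, for protein-coding genes 28.4% and 10.1%). In all 6 pairs the share was above that of all lncRNA genes and below that of protein-coding genes. However, protein-coding genes were in the lists more often to begin with. Their shares were 20.7% in molar pSmad1/5, 7.76% in molar Smad4, 15.5% in limb pSmad1/5 and 21.8% in limb Smad4. The lower lncRNA values therefore do not show that lncRNA genes were shared less, relative to how often they were in a list. Of the 66 genes in 3 lists, 33 combined molar pSmad1/5 with both limb lists, 15 molar Smad4 with both limb lists, 11 both molar lists with limb Smad4 and 7 both molar lists with limb pSmad1/5.

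Peaks of different lists seldom lay on the same bases at lncRNA ends. In molar, 11 of the 1030 peaks of pSmad1/5 shared at least 1 bp with a Smad4 peak (1.07%, 0.534 to 1.90%), against 0.589% of all molar pSmad1/5 peaks and 0.686% of those at protein-coding ends. In limb the corresponding count was 32 of 808 (3.96%, 2.72 to 5.55%), against 4.85% of all limb pSmad1/5 peaks and 12.8% (11.7 to 14.0%) of those at protein-coding ends. The limb share at lncRNA ends was thus below that at protein-coding ends and had an interval that includes the 3.44% of peaks at neither kind of gene end. However, limb Smad4 peaks were denser at protein-coding ends, with 67.6 per Mb against 23.5 at lncRNA ends. The lower share therefore does not show that the peaks coincided less, relative to how dense limb Smad4 peaks were.

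Between tissues, 20 molar pSmad1/5 peaks at lncRNA ends overlapped a limb pSmad1/5 peak (1.94%, 1.19 to 2.98%), against 1.11% of all molar pSmad1/5 peaks, 3.55% at protein-coding ends and 0.661% at neither. For Smad4, 4 of 904 molar peaks overlapped a limb peak (0.442%, 0.121 to 1.13%), against 0.443% of all molar Smad4 peaks. Molar pSmad1/5 peaks overlapped limb Smad4 peaks in 32 cases (3.11%, 2.13 to 4.36%), against 1.92% of all molar pSmad1/5 peaks, 6.71% at protein-coding ends and 1.05% at neither. Molar Smad4 peaks overlapped limb pSmad1/5 peaks in 3 cases (0.332%, 0.0685 to 0.967%), against 0.281% of all molar Smad4 peaks.

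**Figure D4:**
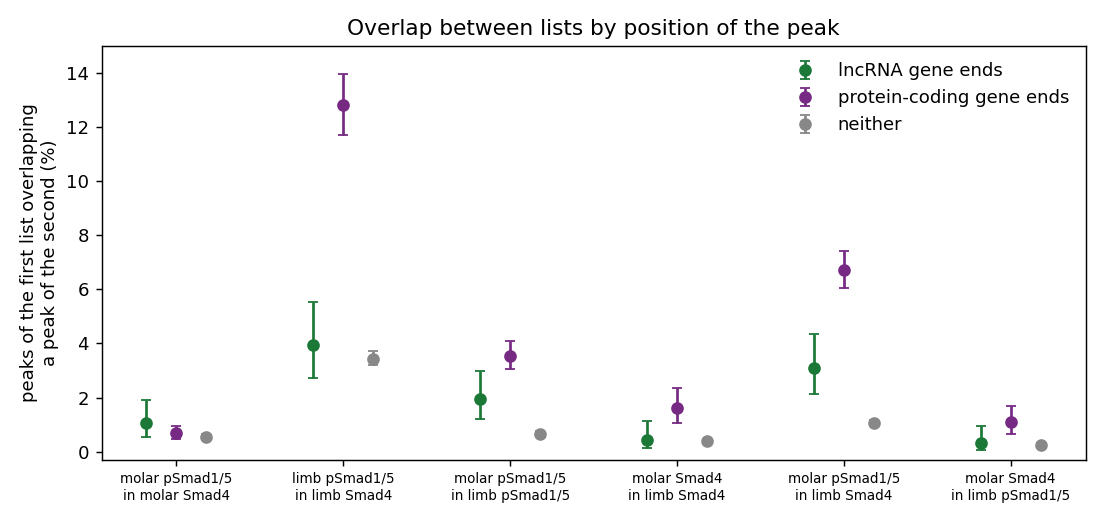
Share of the peaks of the first list that overlap a peak of the second list by at least 1 bp (vertical axis, percent), by position of the peak: at lncRNA gene ends (green), at protein-coding gene ends (purple) or at neither (grey). Bars are exact 95% intervals over peaks. At lncRNA ends 1.07% of molar pSmad1/5 peaks overlapped molar Smad4 and 3.96% of limb pSmad1/5 peaks overlapped limb Smad4, against 12.8% of limb pSmad1/5 peaks at protein-coding ends. The shares are not adjusted for the density of the second list, which differs between these positions.

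The 3 lncRNA genes with peaks in all 4 lists were Dleu2, Gm36569 and Gm38491. Dleu2 (chr14:61602836-61682373, minus strand), the host transcript of miR-16-1, overlaps a protein-coding gene. A molar pSmad1/5 peak (chr14:61682725-61683006, score 3.63) lay before its start and overlapped 2 limb pSmad1/5 peaks, with scores of 6.06 and 4.68. Inside the gene a limb pSmad1/5 peak (score 4.23) overlapped a limb Smad4 peak (chr14:61681855-61681919, score 4.57). The molar Smad4 peak (score 3.08) lay at the other end of the gene, near Kcnrg.

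Gm36569 (chr3:79859293-79886806, minus strand) had 1 limb pSmad1/5 peak (score 5.97) overlapping 1 limb Smad4 peak (score 4.09) 194 to 251 bp inside its start, 2 molar pSmad1/5 peaks (2.34 and 2.33) further in, and 1 molar Smad4 peak (3.82) at the other end. Both molar pSmad1/5 scores lie below 3, the floor of the other lists on chromosome 3. Gm36569 is thus in all 4 lists only through the lower floor of molar pSmad1/5. Gm38491 (chr10:42583792-42585823, plus strand) lies beside Nr2e1, which encodes a nuclear receptor of neural progenitors. Its peaks were molar pSmad1/5 (3.12), molar Smad4 (3.16), limb pSmad1/5 (3.09) and limb Smad4 (3.36). They lay 45 to 998 bp from its end and did not overlap each other.

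Gm15222 (chr14:46387478-46389282, plus strand) lies within the span of Bmp4, the gene of a BMP ligand of tooth and limb, and had peaks in 3 lists. It had 3 molar pSmad1/5 peaks with scores of 2.72, 4.13 and 3.64, 1 molar Smad4 peak with a score of 4.29, and 2 limb Smad4 peaks with scores of 3.81 and 3.76. The limb pSmad1/5 list had no counted peak within 1 kb of its ends. The 6 peaks lay 1725 to 3375 bp from an end of Bmp4, and none overlapped a peak of another list.

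**Figure D5:**
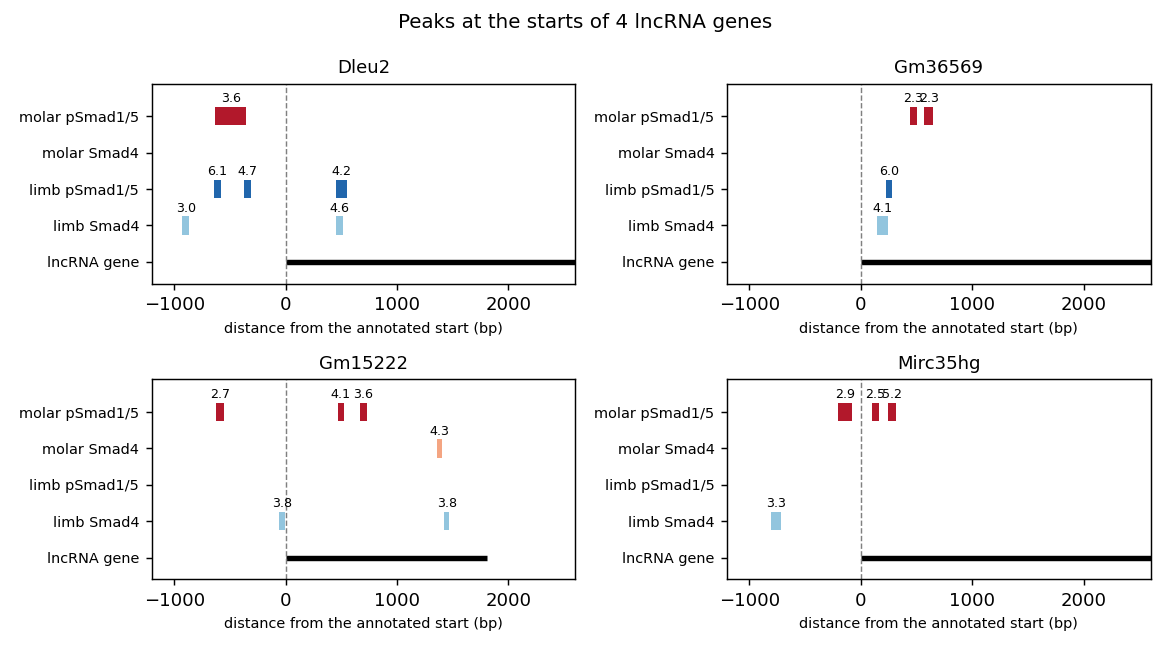
Peaks at the starts of Dleu2, Gm36569, Gm15222 and Mirc35hg by list, with the distance from the annotated start in bp (horizontal axis, direction of transcription to the right), the enrichment score above each peak and the gene as a black bar. At Dleu2 a molar pSmad1/5 peak of score 3.63 partly overlaps 2 limb pSmad1/5 peaks, and at Gm15222 molar and limb peaks lie at different positions.

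Other lncRNA genes had a peak within 5 kb of an end of a gene on a short list of regulators of BMP signalling, tooth or limb, which holds only some of the known regulators. Dlx4os, named for the opposite strand of the homeobox gene Dlx4, had a limb Smad4 peak (score 4.38), and Gm38659 on the other side of Dlx4 had a molar Smad4 peak (4.48). Tbx3os2, beside the T-box gene Tbx3, had a molar pSmad1/5 peak (3.23) that lay 1286 bp from an end of Tbx3. A330033J07Rik, beside the inhibitor of differentiation gene Id4, had a molar pSmad1/5 peak (2.86) at 1289 bp from Id4.

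The highest-scoring peaks of each list lay at lncRNA genes known by a provisional symbol, as are 96.8% of all lncRNA genes with a qualifying end. In molar pSmad1/5 the leading peaks were at Gm10789 (score 6.72) and Gm14261 (6.16). Gm14261 starts beside Sall4, a zinc finger gene of limb development. The leading molar Smad4 peak was at LOC115490439 (chr6:135241547-135241598, score 5.84), and a molar pSmad1/5 peak of score 3.47 overlapped it. The leading limb pSmad1/5 peaks were at Gm19439 (6.91), Gm35001 (6.48) and Gm51663 (6.10). The leading limb Smad4 peak was at the start of Gm40371 (chr6:47651181-47651351, score 8.30), where it covered the limb pSmad1/5 peak printed above (score 6.08). Limb Smad4 peaks at Gm40237 (7.88) and Gm36416 (7.54) followed. Scores order the peaks within a list and were not compared between lists.

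The 3 promoters printed in full differed in which lists overlapped. At LOC115486434 a molar pSmad1/5 peak (score 3.19) spanned a limb Smad4 peak (5.16) and also overlapped a limb pSmad1/5 peak (5.48) and the other limb Smad4 peak (4.15). This promoter had a GC content of 68.7% and lies inside Kcns1, a potassium channel gene. At Gm34728 the molar pSmad1/5 peak (3.40) overlapped the limb pSmad1/5 peak (3.17) and the limb Smad4 peak (3.02). At Gm17089, which overlaps a protein-coding gene and is nearest to the ends of Etv6, a gene of an ETS repressor, the molar pSmad1/5 peak (2.36) overlapped the molar Smad4 peak (3.52), and the limb Smad4 peak (3.51) lay apart. The score of 2.36 lies below 3, the floor of the other lists on chromosome 6. The Gm17089 promoter thus holds summits of 3 lists only through the lower floor of molar pSmad1/5.

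Dio3os, antisense to the imprinted deiodinase gene Dio3, was among the genes in 3 lists. Its molar pSmad1/5 peak (score 2.26) lay 27 bp from its start, the limb pSmad1/5 peak (3.92) 189 bp and the limb Smad4 peak (4.85) 458 bp. The score of 2.26 lies below the floor of 3 in the limb lists. Dio3os is thus in 3 lists only through the lower floor of molar pSmad1/5. The largest number of peaks of 1 list at 1 gene was 4, for molar pSmad1/5 at 4931419H13Rik beside the cyclin gene Ccna1, with scores of 3.47, 3.43, 2.21 and 2.17. Of these scores, 2.21 and 2.17 lie below the floor of 3 in the limb lists. Limb Smad4 also reached 4, at Gm14488, Gm15743, Gm3764, Gm51960 and Gm9748.

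Host genes of small RNAs, here only genes whose symbol starts with Snhg or ends in hg, had a peak in 14 of 31 cases. This was 45.2%, against 22.9% of all lncRNA genes. Hosts with other symbols, such as Dleu2, Lncppara and Gm3764, are not among the 31. By list, 6 had a molar pSmad1/5 peak, 2 a molar Smad4 peak, 5 a limb pSmad1/5 peak and 5 a limb Smad4 peak, where 7.47%, 6.87%, 6.01% and 7.35% of all lncRNA genes had one. The intervals of the host genes were 7.45 to 37.5%, 0.791 to 21.4%, and 5.45 to 33.7% in each limb list. Each includes the value of all lncRNA genes, and the shares rest on few genes. Mirc35hg, host of the miR-183, miR-96 and miR-182 cluster of sensory cells, had 3 molar pSmad1/5 peaks at its start with scores of 5.18, 2.47 and 2.95, 1 limb pSmad1/5 peak (3.46) at its other end and 1 limb Smad4 peak (3.31) before its start. Snhg8, a small nucleolar RNA host, had molar pSmad1/5 peaks of 5.18 and 2.56. Snhg11 had a limb pSmad1/5 peak (4.23) over its start that overlapped a limb Smad4 peak (4.30). Mir1a-1hg, host of the muscle microRNA miR-1a, had a molar pSmad1/5 peak (4.32) and 3 limb Smad4 peaks (4.04, 4.15 and 3.72).

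RefSeq lists 1005 microRNA hairpins, of which 145 lie inside an annotated lncRNA gene. At least 55 lie inside at least 35 lncRNA genes with a peak counted here. The 55 and 35 do not cover every chromosome, so they are lower limits and give no share of the 145. The mature microRNAs below come from hosts with peaks in 3 or 4 lists and from the hosts of miR-9, with the seed (bases 2 to 8) in capitals. They lie at chr14:61631936-61631957 (minus strand, in Dleu2), chr15:85706616-85706637 and chr15:85707325-85707346 (plus strand, in Lncppara) and chr3:88215613-88215635 (plus strand, in Gm3764), and, in Mirc35hg on the minus strand, at chr6:30169711-30169732, chr6:30169506-30169528 and chr6:30165962-30165986.
miR-16-5p: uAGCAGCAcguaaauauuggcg
let-7c-5p: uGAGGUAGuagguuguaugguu
let-7b-5p: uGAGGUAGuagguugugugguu
miR-183-5p: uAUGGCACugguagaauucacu
miR-96-5p: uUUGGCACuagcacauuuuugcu
miR-182-5p: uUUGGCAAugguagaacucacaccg
miR-9-5p: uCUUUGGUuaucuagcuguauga
The let-7c and let-7b seeds are identical. Their host Lncppara had a limb Smad4 peak (score 4.61) and a molar Smad4 peak (4.09) near its start and a molar pSmad1/5 peak (3.39) at its other end. Gm3764, host of miR-9-1, had 4 limb Smad4 peaks, of which the highest scored 7.16, and a limb pSmad1/5 peak of 4.16. Mir9-3hg, host of miR-9-3, had a molar Smad4 peak (4.12) at its end. C130071C03Rik, host of miR-9-2, was chosen after its values were seen and had a peak in 1 list. MiR-9 is best known from neural progenitors.

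Of 34 annotated developmental and homeobox-linked lncRNAs, 12 had a peak (35.3%, against 22.9% of all), with 3 in molar pSmad1/5, 1 in molar Smad4, 6 in limb pSmad1/5 and 5 in limb Smad4. Sox1ot had a limb pSmad1/5 peak (4.91) and a limb Smad4 peak (3.97) at its start. Tunar, a transcript of pluripotent and neural cells, also had limb peaks at its start, of pSmad1/5 (3.71) and Smad4 (3.25). Crnde, beside the homeobox gene Irx5, had a molar pSmad1/5 peak (4.70) at its end and a limb pSmad1/5 peak (3.70) just inside its start.

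Several lncRNAs in or beside the Hox clusters had 1 peak each. Hotair, from the Hoxc cluster, had a limb Smad4 peak (3.35). Hottip, at the Hoxa13 end of the Hoxa cluster, had a molar Smad4 peak (3.88), Hoxb5os a molar pSmad1/5 peak (3.99) and Evx1os a limb Smad4 peak (3.10). Hoxaas2, Hoxaas3, Hoxa11os, Hoxb3os, Hoxd3os1, Haglr and Halr1 had none in any list. Hand2os1, Fendrr, Dlx6os1 and Tbx3os1, whose partners are regulators of limb, heart or face, had none either, nor did Sox2ot. Peaks within 1 kb of a protein-coding gene end were not counted. A gene without a counted peak can therefore still have a peak close to such an end.

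Of 8 annotated imprinted lncRNAs, 3 had a peak. H19 had a molar Smad4 peak (3.35) and a limb pSmad1/5 peak (3.37), Meg3 had molar pSmad1/5 peaks at both ends (3.24 and 3.22) and Mirg a molar pSmad1/5 peak (3.63). Of 15 widely expressed or X-inactivation lncRNAs, 7 had a peak. Chaserr, which acts on its neighbour Chd2, had a molar pSmad1/5 peak (4.21) and a molar Smad4 peak (4.72), which lay on opposite sides of its start. Firre, an X-linked nuclear lncRNA, had a limb pSmad1/5 peak (3.44) and a limb Smad4 peak (2.51) just before its start. Jpx, an activator of Xist, had a molar Smad4 peak (2.75) and a limb pSmad1/5 peak (2.24), and Malat1, a lncRNA of nuclear speckles, a limb pSmad1/5 peak (3.34). Xist, Neat1, Norad, Tug1 and Pvt1 had no counted peak in any list. These 3 groups are small, and each share rests on few genes.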

How the data were processed

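Peaks were called by the authors with BCP, per the labels, in 1 list per library, and the submitters' processing notes name bcl2fastq, Bowtie2, SAMtools, deepTools and bedtools, without versions or roles, and the build mm10. The sources used here do not say whether the input libraries served as controls. The deposited lists hold, per peak, the position, the summit, an enrichment score and a p-value set by the authors. The deposited score served only to describe, rank or filter peaks, and the deposited p-value entered no test.

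Gene ends, promoters and microRNAs came from RefSeq on GRCm38.p6. The table annotates 12727 lncRNA genes and 21883 protein-coding genes on the primary chromosomes, and strand was taken from the promoter table, which matched 9533 of the lncRNA genes. The ratio of peak densities is the share of a list's peaks in the qualifying windows divided by the share of the annotated chromosome span that they cover. Overlap meant at least 1 bp. With 1 library per group no test was run, and intervals are exact (Clopper-Pearson) 95% binomial ones. The depth per library is unknown.

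The genes named are members of the fixed lists, the 3 highest-scoring peaks of each list, genes in 3 or 4 lists, the 5 highest-scoring overlaps per pair of lists, genes with the most peaks, and genes within 5 kb of BMP, tooth or limb regulators. A selection of these is printed, and a gene that the rule selects is not reported here. The members and lists were chosen with earlier results of these data known. Counting was tested on simulated data. The software was matplotlib 3.10.9, scipy 1.17.1, pandas 2.3.3 and numpy 2.4.6 under Python 3.11.15. Alternatives varied the distances, the score minimum, the lncRNA genes included and the overlap rule.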

Additional observations from a re-analysis of the deposited data

Results flagged for a closer look

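The ratio of pSmad1/5 to Smad4 at lncRNA genes lay above 1 in molar and below 1 in limb for 3 measures taken over all chromosomes. With 1 library per group none of these differences was tested. For the peak density at lncRNA ends relative to the list, pSmad1/5 over Smad4 was 1.11 in molar and 0.973 in limb, so that the molar ratio was 1.14 times the limb ratio. For the density at lncRNA starts it was 1.43 in molar and 0.930 in limb, a difference of 1.54 times. For the share of lncRNA genes with a peak it was 1.09 in molar and 0.817 in limb, a difference of 1.33 times.

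These opposite directions did not hold under several alternatives. On the autosomes where all 4 lists had equal score floors, the density ratio at lncRNA ends was 1.20 in molar and 1.04 in limb, and at lncRNA starts 1.86 in molar and 1.04 in limb, so that both tissues lay above 1. The ratio of gene counts on those autosomes was 0.541 in molar and 0.858 in limb, both below 1. For scores of 4 or more the ratio of gene counts was 0.514 in molar and 0.650 in limb. With intergenic lncRNA genes only, the density ratio at lncRNA ends was 0.862 in molar and 1.14 in limb, the one at lncRNA starts 1.04 in molar and 1.13 in limb, and the ratio of gene counts 0.890 in molar and 0.945 in limb. At over 5 kb from protein-coding ends the density ratio at lncRNA ends was 0.948 in molar and 1.02 in limb, and the ratio of gene counts 0.953 in molar and 0.844 in limb. With a limit of 2 kb the density ratio at lncRNA ends was 1.06 in molar and 1.01 in limb.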

How the results depend on the processing

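Of 116 alternative values for 20 results, 59 stayed within the interval of the main value (for gene counts, within 1.5 times it), 57 moved and 0 reversed. Reversal was judged only for the density at lncRNA ends relative to the list and for the start to end ratio, which did not cross 1. The ratios of pSmad1/5 to Smad4 given before, some of which crossed 1, were not among the 20 results. In this paragraph values are in the order molar pSmad1/5, molar Smad4, limb pSmad1/5 and limb Smad4 where 4 are given. The density at lncRNA ends relative to the list moved with a limit of 500 bp to 1.90 in molar pSmad1/5 and 2.40 in limb Smad4, and with a limit of 2 kb to 1.60 in molar pSmad1/5, 1.92 in limb pSmad1/5 and 1.91 in limb Smad4. At over 5 kb from protein-coding ends it was 1.51, 1.86 and 1.82 in the same 3 lists, and with intergenic lncRNA genes only 1.30, 1.61 and 1.41. For scores of 4 or more it was 1.87, 1.83, 2.40 and 2.42. It moved to 1.48 in molar Smad4 on the autosomes with equal score floors and to 2.02 in limb Smad4 with an even spread within each chromosome. The start to end ratio moved for scores of 4 or more to 2.29 in molar pSmad1/5, 2.05 in limb pSmad1/5 and 2.71 in limb Smad4, to 1.66 in limb Smad4 at over 5 kb from protein-coding ends, to 1.47 in molar pSmad1/5 with intergenic lncRNA genes, and to 2.42 in molar pSmad1/5 and 1.68 in limb Smad4 on the autosomes with equal floors. The number of lncRNA genes with a peak was 542, 446, 391 and 546 with a limit of 500 bp, 1633, 1550, 1304 and 1561 with 2 kb, then 114, 222, 184 and 283 for scores of 4 or more, 411, 462, 341 and 361 with intergenic genes and 173, 320, 235 and 274 on the autosomes with equal floors. These counts changed by construction, since windows, genes or peaks were added or removed. For scores of 4 or more the molar pSmad1/5 count was the lowest of the 4 lists, whereas it was the highest without that minimum.

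The share of limb pSmad1/5 peaks overlapping limb Smad4 was 2.33% with intergenic genes, 8.54% with summits within 200 bp and 1.98% with an overlap of 50% of the shorter peak. The share of molar pSmad1/5 peaks overlapping molar Smad4 was 0.00% for scores of 4 or more and 0.238% with intergenic genes. The share of molar pSmad1/5 peaks overlapping limb pSmad1/5 was 0.549% on the autosomes with equal floors and 3.79% with summits within 200 bp. The share of molar Smad4 peaks overlapping limb Smad4 was 0.00% on those autosomes, with a limit of 500 bp and for scores of 4 or more, 1.66% with summits within 200 bp and 0.111% with an overlap of 50%. Promoters of 55% GC or more held a molar pSmad1/5 summit in 2.86% on the autosomes with equal floors. Where fewer peaks or another overlap rule do not account for a move by construction, the cause was not tested. No lncRNA gene had 5 or more peaks in 1 list, so leaving out such genes changed nothing. The equal-floor, within-chromosome and start to end alternatives, and the ratios of pSmad1/5 to Smad4 under each alternative, were chosen after seeing the data. No paired analysis was possible because each group has 1 library and no result comes from a test.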

Other observations

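Peaks at lncRNA ends lay within 1 kb of a tRNA gene in 0.485% of cases in molar pSmad1/5, 0.221% in molar Smad4, 0.248% in limb pSmad1/5 and 0.0947% in limb Smad4, on 5, 2, 2 and 1 peaks, against 0.0726%, 0.0327%, 0.0221% and 0.0244% of the other peaks of each list. Within 1 kb of a small nucleolar RNA gene the shares were 0.485%, 0.111%, 0.371% and 0.568%, on 5, 1, 3 and 6 peaks, against 0.122%, 0.116%, 0.208% and 0.226%. Within 1 kb of a microRNA gene they were 0.680%, 0.332%, 0.495% and 0.852%, on 7, 3, 4 and 9 peaks, against 0.316%, 0.146%, 0.372% and 0.408%. Within 1 kb of a pseudogene they were 0.485%, 0.553%, 0.248% and 0.0947%, on 5, 5, 2 and 1 peaks, against 0.842%, 0.868%, 0.824% and 0.697%. Each of these shares rests on few peaks, and no difference was tested.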
